A study of Mus musculus with 2 samples.

Results

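Among the transporters that bring amino acids into activated T cells, 7 genes were compared between memory T helper 2 (Th2) cells making interleukin-5 (IL-5) and those not making it. They were Slc7a5, Slc3a2, Slc1a5, Slc7a1, Slc7a11, Slc38a1 and Slc38a2. They were taken by name and not by their values, but with earlier results of these data known. Every probe set (a group of short probes read out as 1 signal) whose only gene symbol in the platform annotation was one of these names was used. That gave 14 probe sets of the 45037 on the array, and 7 of the 18193 genes named on it.

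The cells came from DO11.10 transgenic BALB/c mice, whose T cell receptor is specific for a peptide of ovalbumin. CD4 T cells were purified magnetically from the spleen, stimulated with that peptide for 6 days with IL-2 at 25 U/ml and IL-4 at 100 U/ml, and transferred into BALB/c nu/nu mice, which lack a thymus and so make few T cells of their own while keeping B, NK and myeloid cells. The memory cells were taken from the spleen 30 days later and sorted by flow cytometry into an IL-5+ and an IL-5- group. Both groups therefore share the receptor transgene, the host strain and the stated conditions of culture and transfer. The sources used here do not say how many recipients were used, whether they were pooled, or how cells were stimulated and stained for the sort. RNA of each group was read on 1 Affymetrix mouse array, so there was no replicate, no test and no p-value, and each ratio describes 2 RNA samples. In such bulk RNA, fewer cells of a type and less RNA per cell cannot be told apart.

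Amino acid transporters set how fast a T cell can grow after its receptor is engaged. SLC7A5 (LAT1) brings in leucine and other large neutral amino acids and works only as a pair with SLC3A2 (the CD98 heavy chain), which carries it to the surface. SLC1A5 (ASCT2), SLC38A1 and SLC38A2 take up glutamine and small neutral amino acids, SLC7A1 takes up arginine and lysine, and SLC7A11, also paired with SLC3A2, exchanges glutamate for cystine. Leucine and glutamine feed the growth kinase complex mTORC1. The kinase GCN2 senses a shortage and acts through the transcription factor ATF4, which is known to induce several of these transporter genes.

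No transporter differed by 2-fold between the arrays. At the brightest probe set of each gene, which stood for the gene, all 7 ratios of IL-5+ over IL-5- lay above 0 on the log2 scale, from 0.059 for Slc38a1 to 0.37 for Slc3a2, with a median of 0.34. The 2-fold count was 0 of 7 in both directions, against 2.85% of all 13133 measured named genes that passed 2-fold upward and 4.01% that passed it downward in IL-5+ cells. Bright genes passed it less often: of 2411 with a mean signal of 2000 or more, 38 were higher and 32 lower. The brightest probe sets of 6 of the 7 transporters lie in that range. With 7 genes, a count of 0 lies near all of these shares. A ratio above 0 was itself common: it held for 44.5% of all measured genes and for 51.7% of the 2411 genes whose mean signal was 2000 or more. Over all measured genes the median log2 ratio was -0.048. Signals under the floor, 36.3, were set to it, and a gene was called measured when it lay above the floor on an array.

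The only error these arrays offer is how far probe sets of one gene disagree. Their log2 ratios had an SD of 0.13 at mean signals of 2000 or more, 0.21 from 500 to 2000, 0.37 from 112.8 to 500 and 0.55 from there down to the floor. Each SD compares only probe sets of a gene within the same range of signal, so disagreement between bright and dim probe sets is not in it. It also leaves out the variation between cell preparations and between arrays, which was not measured. For 6 of the 7 genes the brightest probe set had a mean signal over 2000, where genes had log2 ratios from -0.13 to 0.16 in the middle of their distribution (25th to 75th percentile) and a 95th percentile of 0.56. Slc7a5, Slc3a2, Slc1a5 and Slc7a1 lay between that 75th and that 95th percentile, and Slc38a1 and Slc38a2 lay within the middle range.

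**Figure D1:**
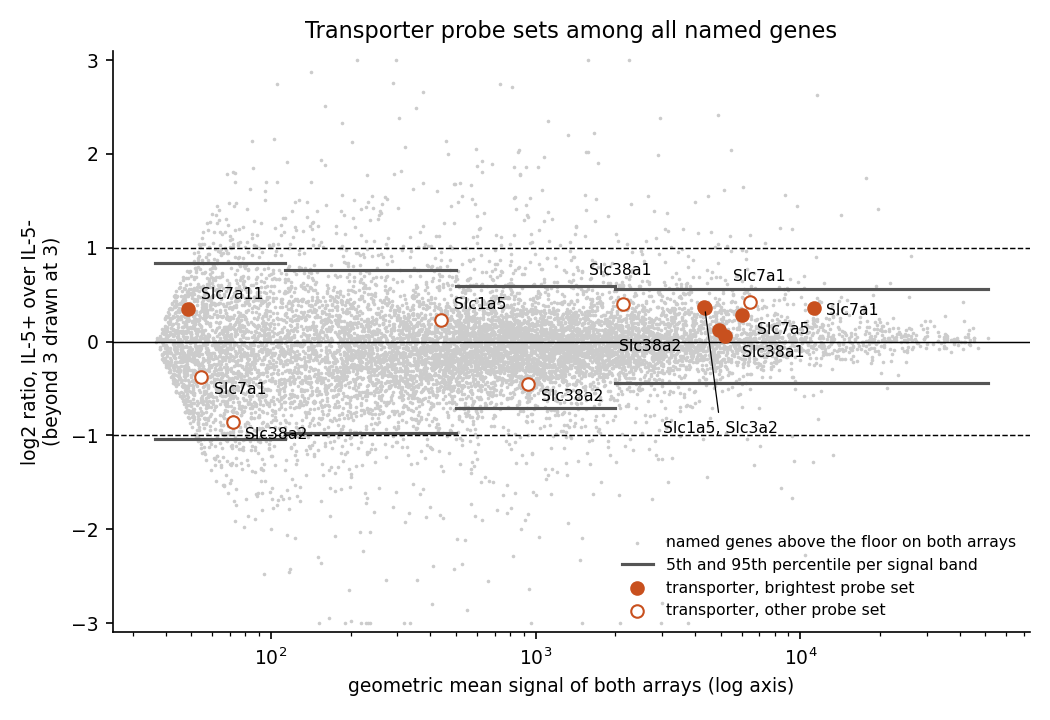
Log2 ratio (signal of IL-5+ over signal of IL-5-) against the geometric mean signal of both arrays on a log axis. Grey points are named genes above the floor on both arrays, bars mark their 5th and 95th percentile in 4 signal bands, filled circles are the brightest probe set of each transporter gene and open circles its other probe sets. All 13 transporter probe sets above the floor lie inside the 2-fold lines (dashed), and the 8 with mean signals over 2000 lie above 0.

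The leucine transporter pair was bright on both arrays. Slc7a5, the light chain, read 6643 in IL-5+ cells and 5449 in IL-5- cells (log2 ratio 0.29, from 1 probe set). Slc3a2, the heavy chain, read 4910 and 3807 (log2 ratio 0.37), also from 1 probe set, whose suffix (_a_at) marks it as matching several transcripts of the gene. Both chains thus had the higher signal in IL-5+ cells, 1.22-fold and 1.29-fold, below the 2-fold call. Their log2 ratios exceeded the probe-set SD of 0.13, but that SD holds no variation between arrays or cell preparations. Whether the differences would recur in another sample was not tested.

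The other light chains of the CD98 heavy chain had no common direction. Slc7a6, which exchanges cationic for neutral amino acids, read 1295 and 1389 (log2 ratio -0.10), and its second probe set gave 0.070. Slc7a10, a carrier of small neutral amino acids, was dim at 48.0 and 55.1. Slc7a8 exceeded the floor in IL-5+ cells alone (41.8 against 14.1), and Slc7a7 lay under the floor on both (19.7 and 31.4). With the floor applied, none of the 3 measured ones was past 2-fold, and lowering the floor to the 20th percentile put Slc7a8 at 1.57.

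The glutamine carrier Slc1a5 gave the same direction at both of its probe sets. The brighter one read 4933 in IL-5+ cells and 3841 in IL-5- cells, a log2 ratio of 0.36. The dimmer one read 477 and 405, a log2 ratio of 0.24, which is less than the SD of 0.37 in that band.

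Slc7a1, the arginine and lysine carrier, had 3 probe sets. One read 12670 in IL-5+ cells and 9921 in IL-5- cells (log2 ratio 0.35), and another, designed from the same source sequence, read 7463 and 5561 (log2 ratio 0.42). The remaining probe set, from another source sequence, read only 47.9 and 62.2 (log2 ratio -0.38), where the SD between probe sets was 0.55. Both bright probe sets were higher on the IL-5+ array and the dim one was lower, with a ratio closer to 0 than its band's SD.

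The sodium-coupled carriers Slc38a1 and Slc38a2, which are next to each other among the protein-coding genes of RefSeq, were the least settled. Slc38a1 read 5306 and 5093 at its brightest probe set (log2 ratio 0.059) and 2448 and 1859 at the other (log2 ratio 0.40). The brighter of these carries the suffix _s_at, which marks probes that may match more than 1 transcript. The difference of these ratios exceeded the SD of 0.13, so the size of any Slc38a1 difference depended on the probe set. Slc38a2 read 5126 and 4701 at its brightest probe set (log2 ratio 0.12), which is within the SD. Its other probe sets, both from a different source sequence, were lower on the IL-5+ array, at 802 against 1100 (log2 ratio -0.46) and at 53.2 against 96.4 (-0.86). The sign for Slc38a2 therefore depended on the probe set. With the median of its 3 probe sets in place of the brightest, the gene's log2 ratio was -0.46. Under each of 3 other scalings the probe sets with ratios below 0 stayed there, from -0.43 to -0.38 and from -0.79 to -0.78 for Slc38a2 and from -0.32 to -0.30 for the dim Slc7a1 probe set. The neighbouring family member Slc38a4 stayed under the floor in both groups.

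**Figure D2:**
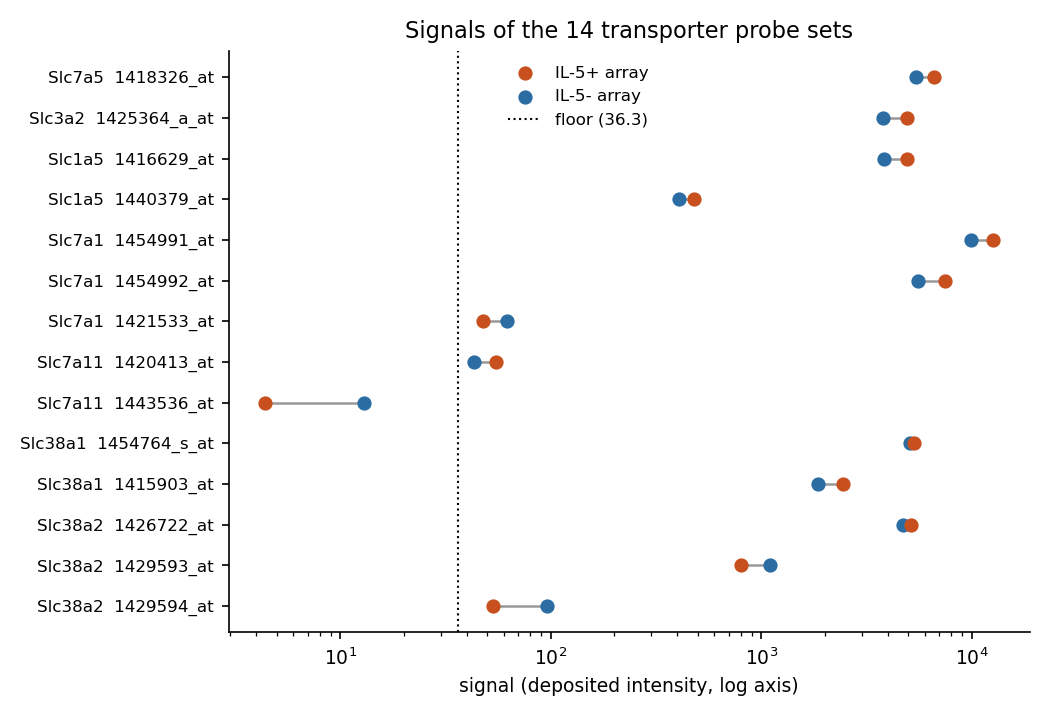
Deposited signals of all 14 transporter probe sets on a log axis, with the IL-5+ array in orange, the IL-5- array in blue and a line joining them; the dotted line is the floor of 36.3. Differences between arrays are small beside the range of signals, and the IL-5- array is higher at 1 probe set of Slc7a1, 1 of Slc7a11 (under the floor) and 2 of Slc38a2.

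Slc7a11, the cystine-glutamate exchanger, was near background in both groups. Its brighter probe set read 54.8 in IL-5+ cells and 43.2 in IL-5- cells, just above the floor of 36.3. Its other probe set stayed below the floor, at 4.4 and 13. The log2 ratio of 0.34 is less than the SD of 0.55 in that band, and with a floor of 112.8 the gene has no ratio at all. Without it, the median of the other 6 genes was 0.32.

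Slc7a11 is shown with its promoter because its window held the core of the composite site bound by ATF4. Promoter windows of 250 bases before the RefSeq start (GRCm38.p6) were read for 4 of the genes, Slc3a2, Slc7a1, Slc7a11 and Slc38a2, and searched on both strands for TGATGNAA. The window of Slc7a11 (chr3:50443614-50443863, minus strand) held the core at 66 to 59 bases and, on the opposite strand, at 47 to 40 bases before the start. Of 32851 such windows of all genes, 3.45% held the core at least once and 13 windows (0.0396%) held it more than once. Among the other SLC1, SLC3, SLC7 and SLC38 carriers, 1 of 22 genes with a window held it, the light chain Slc7a7. The other 3 of the 4 transporter genes with a window did not hold it in these bases. Bases after the start were not searched. For comparison, the window of Asns (chr6:7693210-7693459, minus strand), the asparagine synthetase gene and a textbook ATF4 target, held it once, at 23 to 16 bases before the start. Of the genes for GCN2, ATF4 and ATF4 targets listed below, 5 of the 22 with a window held it, and Trib3 and Psat1 did not. The windows of Slc7a11 and Asns are printed 5′ to 3′ with the core in capitals.
Slc7a11: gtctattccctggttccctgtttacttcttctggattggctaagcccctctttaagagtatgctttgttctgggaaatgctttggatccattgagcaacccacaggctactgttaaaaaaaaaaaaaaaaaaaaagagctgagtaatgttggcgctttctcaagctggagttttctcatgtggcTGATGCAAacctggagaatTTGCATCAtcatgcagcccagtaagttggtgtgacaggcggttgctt
Asns: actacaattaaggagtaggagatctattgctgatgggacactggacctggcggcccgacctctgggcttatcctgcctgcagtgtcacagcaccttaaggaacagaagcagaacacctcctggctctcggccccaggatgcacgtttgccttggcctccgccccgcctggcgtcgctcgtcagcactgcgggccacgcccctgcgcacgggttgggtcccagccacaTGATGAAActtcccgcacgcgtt

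Asns read 5892 and 4717 (log2 ratio 0.32), and its second probe set gave 0.31. The E-box CACGTG, which MYC binds and which 6.02% of windows hold, was in no window of the 4 transporter genes. The core of the antioxidant response element, TGACNNNGC, was in the window of Slc38a2 and in a window of Slc7a1, though not in its other window. It was in 10.2% of all windows. These are matches of letters in short windows, and no binding was measured.

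Carriers related to the 7 genes showed 1 larger difference with the floor applied. Of 28 other members of the SLC1, SLC3, SLC7 and SLC38 families, 14 were measured, with a median log2 ratio of 0.091. The only one past 2-fold was Slc7a3, another carrier of cationic amino acids, at 389 in IL-5+ cells and 138.5 in IL-5- cells. Its log2 ratio of 1.49 came from 1 probe set. Slc1a1, named after its values were seen, exceeded the floor in IL-5- cells alone (8.1 against 47), at least 1.29-fold lower. With the floor at the 20th percentile the log2 ratio of Slc1a1 was -2.03. Slc1a4, a carrier of alanine and serine named after its values were seen, stood at 0.054 at its brightest probe set, with 3 probe sets from -0.074 to 1.21, and was past 2-fold with only probe sets without a suffix (1.21). Slc7a2 (73.6 and 49.2, log2 ratio 0.58) and Slc7a4 (136 and 187, -0.46) were dimmer and under 2-fold, as were Slc1a2 (0.26) and Slc38a7 (0.26).

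Of 22 amino acid carriers in other families, 19 were measured, with a median of -0.15. None was 2-fold higher, and 1 was 2-fold lower. That one, Slc36a2, is named after its value was seen: it exceeded the floor in IL-5- cells alone (19.1 against 74.7), at least 2.06-fold lower, and came just short of 2-fold when signals were scaled to the array median. Slc6a7, a proline carrier also named after its values were seen, exceeded the floor in IL-5- cells alone (5.3 against 61.4), at least 1.69-fold lower, and was past 2-fold with an added constant (-1.23). Slc6a14, likewise named after its values were seen, also exceeded the floor only there (12.5 against 45.6), and stood at -1.87 with the floor at the 20th percentile. The taurine carrier Slc6a6 read 2777 and 1834 (log2 ratio 0.60), and its second probe set gave 0.26. Slc43a2, a carrier of large neutral amino acids, stood at 0.58. Slc36a3 (-0.86), the lysosomal cystine carrier Ctns (-0.68) and the aromatic amino acid carrier Slc16a10 (-0.68) had lower signals on the IL-5+ array. The 4 measured Slc16a10 probe sets ranged from -0.68 to 0.59.

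Genes of the amino acid starvation response mostly had ratios above 0. Of 25 genes for GCN2, ATF4 and ATF4 targets, 23 were measured with a median of 0.28, and 17 lay above 0 and 6 below. A ratio above 0 held for 44.5% of all measured genes. Several genes of the list, such as Atf4 and Mthfd2, had mean signals over 2000, where that share was 51.7%. Among the 6 below 0 were Atf3 (1197 against 1643, -0.46) and Cebpb (-0.31), both named after their values were seen. Only Cth, which makes cysteine from cystathionine, was past 2-fold (889 against 278, log2 ratio 1.68, 1 probe set). Atf4 itself read 11655 and 9218 (log2 ratio 0.34), and its second probe set gave 0.51. Ppp1r15a (0.79), Sesn2 (0.72), Trib3 (0.63) and the mitochondrial folate enzyme gene Mthfd2 (7459 against 5181, 0.53) followed. Second probe sets gave -0.38 for Sesn2 and 1.40 for Trib3, and the median over its probe sets put Trib3 at 1.01. The list's median was 0.17 when every gene took the median over its probe sets.

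The aminoacyl-tRNA synthetases, which load amino acids for protein synthesis, stayed close to 0. All 19 of those named on the array were measured, with a median of 0.13 and none past 2-fold; their 11 ratios above 0 became 17 with scaling to the array median. Cars (0.33), Yars (0.30), Nars (0.30) and Lars (0.28) were the highest at the brightest probe set, with a second Cars probe set at 1.16. Qars, which loads glutamine, stood at -0.26 with 4 probe sets from -0.36 to 0.44.

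The genes through which mTORC1 senses amino acids had no common direction. All 33 named genes of 35 were measured, with a median of -0.045, 16 above 0 and 17 below. Sesn3, encoding a sestrin that restrains mTORC1, was lower on the IL-5+ array (719 against 1842, log2 ratio -1.36), and its second probe set gave -1.17. Rragd, a small GTPase of the pathway named after its value was seen, exceeded the floor in IL-5- cells alone (30.4 against 99.7), at least 2.75-fold lower. Depdc5, another restraint on mTORC1, stood at -0.91 with 4 probe sets from -1.01 to 0.14. Lamtor3 (0.54), which anchors the complex at the lysosome, and Eif4ebp1 (0.50), the translation repressor that mTORC1 inactivates, were on the other side of 0. Mtor itself read 1003 and 1087 (log2 ratio -0.12), while its 3 probe sets reached up to 1.01.

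In the MYC network, Myc, which drives transporter expression after activation, read 8498 and 9365 (log2 ratio -0.14). Of 12 measured genes only Mxd1, an antagonist of MYC, was past 2-fold, at 178 against 936 (log2 ratio -2.39), and its 3 probe sets ranged from -2.39 to -1.08. The related antagonists Mxi1 (-0.75), Mxd3 (0.58) and Mxd4 (258 against 129, 0.99) lay on either side, and Mlx stood at 0.33. Mxd4 was past 2-fold under each of the 3 other scalings (1.06 to 1.07) and with only probe sets without a suffix (1.03). Mycl, named after its values were seen, exceeded the floor in IL-5- cells alone (1.9 against 43.1) and was past 2-fold with an added constant (-1.06) or the floor lowered to the 20th percentile (-1.91). The list's median was -0.014.

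Enzymes that use the imported amino acids were mostly within 2-fold as well. For glutamine and glutamate, 14 genes had a median of 0.23, with Gfpt1 (0.52), Psat1 (0.44), Aldh18a1 (0.40) and Gpt (0.35) below the call. Gpt2, which transfers amino groups between glutamate and pyruvate, was the only one past 2-fold (199 against 87.8, log2 ratio 1.18), and it came under 2-fold at 0.82 with a floor of 112.8, at 0.92 with an added constant, at 0.81 with the median of its probe sets and at 0.47 at its probe set without a suffix. For arginine and polyamines, 13 genes had a median of 0.078. Smox, encoding spermine oxidase, was higher at both probe sets (1168 against 334, log2 ratio 1.80, and 1.29). Odc1, the first enzyme of polyamine synthesis, read 19434 and 15660 (log2 ratio 0.31), and Sat1 (0.43), Dohh (0.32) and Oaz2 (-0.25) were also within 2-fold.

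Catabolism of branched-chain amino acids had a median of -0.064 over 11 genes with none past 2-fold. Bcat1, the cytosolic enzyme that removes the amino group of leucine, was highest at 5792 against 3401 (log2 ratio 0.77), and its 3 probe sets ranged from 0.57 to 0.77. Ivd (-0.51), Bcat2 (-0.25), Mccc2 (-0.23) and Ppm1k (-0.18) lay below 0.

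In the cystine, glutathione and thioredoxin list, 16 genes had a median of 0.048. Srxn1, which repairs oxidised peroxiredoxins, was past 2-fold (1854 against 604, log2 ratio 1.62), with 4 probe sets from 0.95 to 1.66; the lowest is the one without a suffix. Nqo1 (0.56), Txnrd1 (0.32) and Gsr (0.22) lay above 0, and Nfe2l2, the factor that induces such genes, stood at -0.25. Among tryptophan and kynurenine genes, 5 of 8 were measured. Ahr, encoding the receptor for kynurenine, was higher at its brighter probe set (619 against 283, log2 ratio 1.13) and lower at the other (-0.73). Cyp1b1, a target of that receptor named after its value was seen, exceeded the floor in IL-5+ cells alone (98.5 against 29.7), at least 2.71-fold higher. Ahrr (0.48), Tdo2 (-0.22) and Wars (-0.038) completed the list, whose median of 0.48 became -0.051 with the floor at the 20th percentile of signals, which added 3 dim genes.

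Ubiquitin ligases and adaptors that remove transporters from the surface had a median of 0.099 over 11 genes. Nedd4, a ligase of this kind, was past 2-fold at its brightest probe set (322 against 129, log2 ratio 1.32), but the median of its 3 probe sets was 0.44 and the lowest 0.33. Wwp1 (0.59) and Ndfip2 (0.57) lay above 0, and the arrestin-like adaptors Arrdc4 (-0.74, and -1.21 with the median of its probe sets) and Arrdc3 (-0.24) below. Among surface partners of CD98, Lgals3, a lectin that binds it, read 417 and 162 (log2 ratio 1.37, 1 probe set). Itgb1, the integrin chain that CD98 associates with, stood at 0.59 with 4 probe sets from -0.14 to 0.59. Itga4 (-0.37), Bsg (0.24) and Itgal (0.053) were within 2-fold.

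Other nutrient carriers and activation markers were also within 2-fold, all 12 of those measured, with a median of 0.11. Tfrc, the transferrin receptor, had the highest ratio (8635 against 5203, log2 ratio 0.73), although another of its 3 probe sets gave 0.13. Cd44 (0.47), Tnfrsf9 (0.46), the vitamin carrier Slc5a6 (0.36) and the glucose carrier Slc2a1 (0.31) followed.

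**Figure D3:**
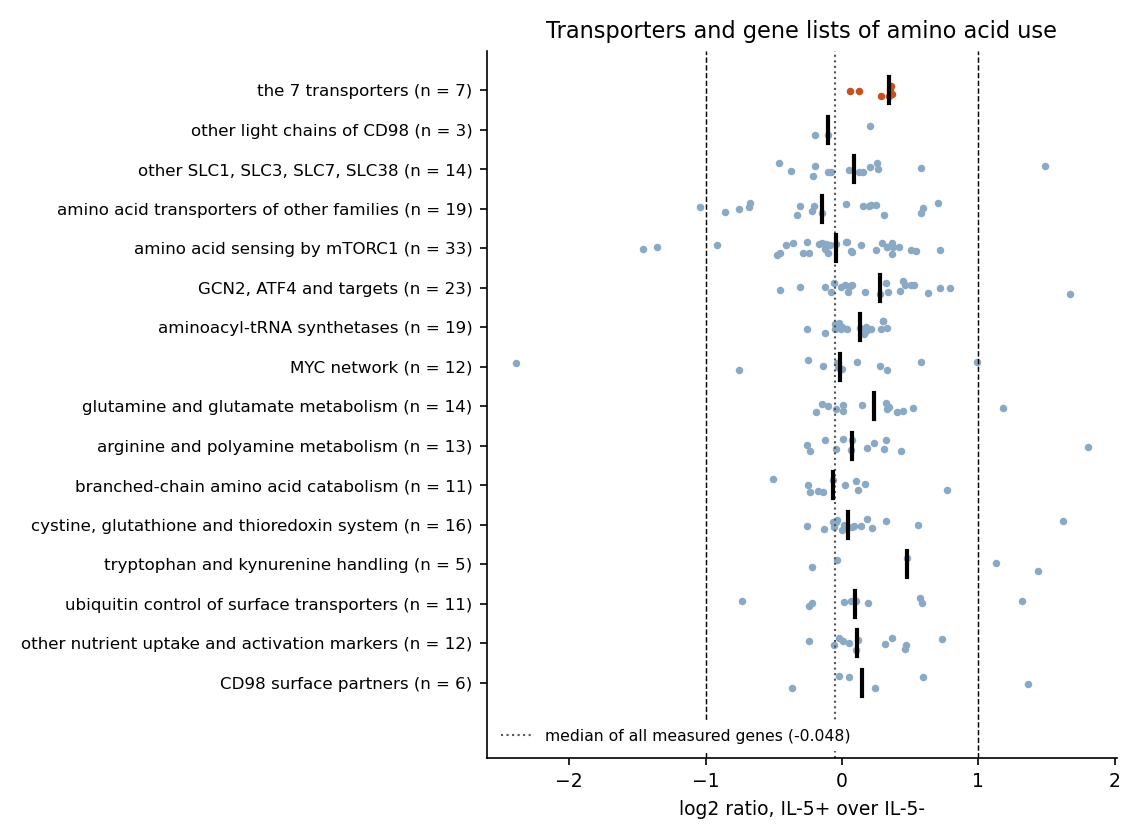
Log2 ratio (IL-5+ over IL-5-) of each measured gene (points) and the median (black bar) for the 7 transporters and 15 gene lists of amino acid use, with n measured genes in brackets. Dashed lines mark 2-fold and the dotted line the median of all measured genes, -0.048. The transporters lie between 0.059 and 0.37, and single genes such as Mxd1, Sesn3, Smox and Cth lie outside the 2-fold lines.

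The labels and the makeup of the samples were checked on other genes. Il5, the sorting marker, read 37085 in IL-5+ cells and 67.4 in IL-5- cells. The T cell genes Cd3e (1952 and 2474), Cd3d (9116 and 13553) and Cd4 (454 and 471) were present on both. All 11 T cell genes named were measured, and 9 were lower on the IL-5+ array, with a median of -0.17 and summed signals of 68032 and 82793. The 7 lists of other cell types had 56 named markers, of which 26 stayed below the floor and 2 exceeded 500 on an array. These were Gzmb (2756 and 4454) and Klrk1 (519 and 297), named after its value was seen. The brightest of the other lists were Csf1r (106 and 124) for myeloid, Pax5 (6.4 and 70.2) for B, Elane (62.2 and 48.1) for neutrophil, Hdc (353 and 10.4) for basophil and mast, Ermap (64.4 and 23.7) for erythroid and Pecam1 (258 and 165) for stromal and endothelial cells. Summed marker signals were lower in IL-5+ cells for B (246 against 333), myeloid (364 against 477), neutrophil (162 against 214) and CD8 T and NK cells (3924 against 5184). The last sum turned on Gzmb: without it the other 6 genes summed to 1168 against 730, and 4 of the 6 measured genes of the list were higher in IL-5+ cells, with a median of 0.73. Sums were higher for basophil, mast cell and eosinophil (547 against 257), erythroid (164 against 93) and stromal and endothelial markers (520.5 against 391). The first of these turned on Hdc, without which the other 8 genes summed to 194 against 246. Leaving out the brightest gene, a check chosen after the data were seen, turned no other list's sum. Of the 56 markers, 47 stayed under 112.8 on both arrays, and none was listed at 0. The part of other cells in the transporter ratios was not tested.

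The direction of 6 of the transporter ratios was the same under every processing choice tried, although changes of the floor could not move the bright ones. Under 9 other choices of scaling, floor, constant or probe set, the log2 ratios ran from 0.24 to 0.36 for Slc7a5, from 0.34 to 0.45 for Slc3a2, from 0.30 to 0.44 for Slc1a5, from 0.32 to 0.43 for Slc7a1, from 0.20 to 0.42 for Slc7a11 where it had a value, and from 0.025 to 0.40 for Slc38a1. Slc38a2 ran from -0.46 to 0.20. No choice brought any of the 7 past 2-fold.

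**Figure D4:**
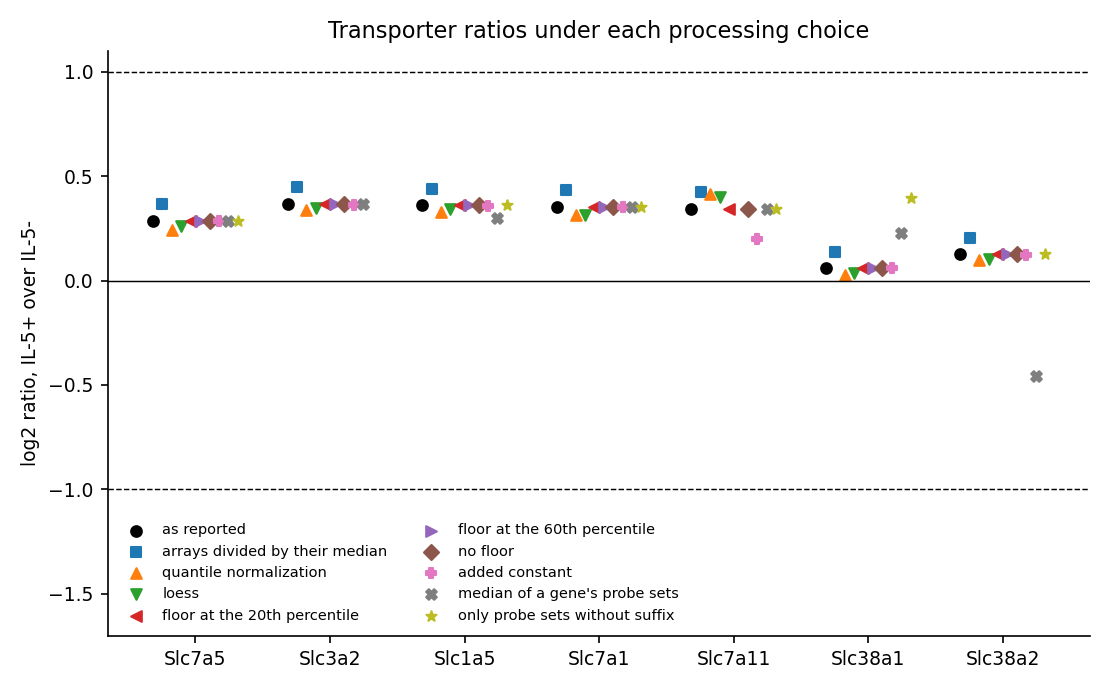
Log2 ratio (IL-5+ over IL-5-) of the 7 transporters as reported (black circles) and under 9 alternatives (other symbols), with dashed lines at 2-fold. Values stay between 0.025 and 0.45 except for Slc38a2 with the median of its probe sets (-0.46); Slc7a11 has no value with a floor at the 60th percentile, and Slc3a2 none without suffixed probe sets.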

How the data were processed

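RNA of 2 sorted samples was measured on 1 Affymetrix array each. The authors deposited 1 linear signal intensity per probe set. Per the submitters' processing notes it comes from GCOS, Affymetrix's scanner program, whose version, algorithm and scaling are not stated there. The means without the lowest and highest 2% were 496 and 497, as scaling to a common target would give, so ratios are relative to the rest of the array. The table holds no detection calls, and bright signals may be compressed.

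Of 45037 probe sets, 34945 had 1 gene symbol, 932 had several and 9160 had none listed. Entrez identifiers of 34741 matched RefSeq (GRCm38.p6); all 14 transporter probe sets kept their symbol. The values name no genome build, so genes have no coordinates; promoter coordinates are RefSeq's. A gene's value is that of its brightest probe set (mean log2 signal), and a bound ("at least") is given where 1 array lies under the floor (40th percentile). Counting was tested on simulated arrays.

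The transporters and the lists of 15 pathways and 8 sets of cell markers were chosen with earlier results of these data known. Named were all 7 transporters, up to 5 genes per pathway list with the largest ratio among genes measured in both groups, the other CD98 light chains, the brightest marker per cell type, Cd3e, Cd4 and Il5. Others are given for their role (such as Atf4, Asns, Myc, Mtor) or as named after their values were seen. Alternatives were scaling by the median, quantile or loess (span 0.3), floors at the 20th or 60th percentile or none, the 40th percentile as an added constant, a gene's median over probe sets, leaving out probe sets ending in _s_at, _x_at or _a_at, and thresholds of 1.5-fold and 3-fold. Tools were pandas 2.3.3 and numpy 2.4.6 under Python 3.11.15, with statsmodels 0.14.6 for loess and matplotlib 3.10.9.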

Additional observations from a re-analysis of the deposited data

How the results depend on the processing

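Of 61 transporter ratios under the alternatives, 58 moved by less than the SD between probe sets of that brightness. The others were Slc38a1 with the median of its probe sets (0.23) or only probe sets without a suffix (0.40), and Slc38a2 with the median (-0.46), which turned its sign. Many of the 61 ratios could not move, because a floor leaves brighter signals unchanged and a gene with 1 measured probe set keeps its value. No transporter passed 2-fold under the alternatives. None passed 1.5-fold as reported, so none could pass 3-fold. Of 144 list medians 141 moved by less than 0.37, the SD between probe sets at mean signals from 112.8 to 500. That bound exceeds every reported list median but the tryptophan list's, so changes of sign pass it. Carriers of other families went from -0.15 to 0.12 with a 60th-percentile floor. Scaling to the array median took mTORC1 sensing from -0.045 to 0.033 and the MYC network from -0.014 to 0.064. It took branched-chain catabolism from -0.064 to 0.015. The tryptophan list moved further, to -0.028 with an added constant, -0.051 with a 20th-percentile floor and -0.051 with no floor. Counts of all genes past the threshold went from 374 higher and 526 lower to 1325 and 1572 (floor at the 20th percentile), 183 and 226 (60th percentile), 2058 and 2314 (no floor), 1036 and 1563 (1.5-fold) and 91 and 143 (3-fold). These follow from dim signals entering or leaving and from the threshold itself. Higher genes were 41.6% of calls and 49.5% with each array divided by its median. No paired analysis was possible because each group has 1 array, and no replicate could be left out for the same reason. Array signal over background limits Slc7a11 most.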

Other observations

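In the solute carrier superfamily as a whole, the share of 2-fold calls was near that of all measured genes upward and lower downward. Both shares rest on few genes and 1 array per group, so they are not read as a trait of the superfamily. Of 342 genes with a solute carrier symbol, 240 were measured with a median log2 ratio of 0.030; 6 (2.5%) were at least 2-fold higher on the IL-5+ array and 5 (2.08%) at least 2-fold lower, against 2.85% and 4.01% of all measured genes. All 11 are named after their values were seen. The highest was Slc17a6, the vesicular glutamate transporter gene known from neurons, at 660 against 157 (log2 ratio 2.07), although its other measured probe set gave 0.77. Slc15a3, a lysosomal carrier of histidine and peptides, read 977 and 353 (log2 ratio 1.47, 1 probe set). The carboxylate carriers Slc13a3 (1621 against 772, 1.07) and Slc13a5 (123 against 44.3, 1.47) were also higher. The 3 Slc13a3 probe sets ranged from 0.59 to 1.28, and Slc13a5 came to 0.12 with a floor of 112.8 and to 0.98 with an added constant. Slc7a3 and Slc26a10 (110.4 against 48.5) completed the higher genes, and Slc26a10 came to 0.79 with an added constant.

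The lower genes were all dim. Slc39a13, a zinc carrier, read 40.1 and 134.6 (log2 ratio -1.75, and -0.25 with a floor of 112.8). The urea carrier Slc14a1 exceeded the floor in IL-5- cells alone (30.2 against 102.5, at least 2.82-fold lower), with its second probe set at -1.46. Slc26a11 (18.8 against 96.7, at least 2.66-fold lower) and Slc36a2 also exceeded it only there, and the urate carrier Slc2a9 read 44.0 and 93.2 (-1.08, and -0.69 with an added constant).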
